A study of Mus musculus with 35 samples.

Results

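Chemokines are small proteins that attract leukocytes along a gradient by binding G-protein-coupled receptors. In pancreatic ductal adenocarcinoma (PDAC), tumor cells and stromal cells both make them, and NF-κB and interferon signaling are the best known inducers. The genes described here are 10 chemokines of a mouse PDAC line: Cxcl1, Cxcl2, Cxcl5, Cxcl10, Cxcl12, Cxcl16, Ccl2, Ccl7, Ccl20 and Cx3cl1. They were taken by symbol from a table of 53465 genes in 35 libraries, each symbol matched 1 gene ID, and all 10 passed the filter on low counts in the fit of all 12 groups.

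The libraries were RNA sequencing (RNA-seq) of KC-shSmad4 cells, which carry an mKate2 fluorescent reporter and a doxycycline (Dox)-inducible short hairpin RNA against Smad4, the shared partner of the TGFβ-activated SMAD proteins. The cells grew in athymic nude mice, which lack normal T cells, after injection into the pancreas (primary tumors), into the spleen, which was then removed (liver metastases), or into the tail vein (lung metastases). All hosts received Dox, which silences Smad4, while tumors formed; Dox was then kept (labelled Smad4 off) or withdrawn (labelled Smad4 on), and mKate2+ tumor cells were sorted 7 or 14 days later. The groups labelled off and on held, for pancreas, liver and lungs, 3 and 2, 2 and 3, and 4 and 2 libraries on day 7, and 2 and 3, 3 and 3, and 4 and 4 on day 14. Injection route and weeks of growth differed between organs, so they cannot be told apart from the organ.

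Library totals ranged from 11885461 to 43571007 counts, with a median of 19415000. Smad4 mRNA went against the labels: it was 14.8 to 22.4 CPM (counts per 1e6 counts of the TMM-scaled library) in the 17 libraries labelled Smad4 on and 69.9 to 143 CPM in the 18 labelled Smad4 off. Every change between labels is therefore given as labelled on against labelled off, and no direction of Smad4 activity is drawn from it. The keratin and adhesion markers of carcinoma cells were above 0 in every library, as Epcam ranged from 54.7 to 880 CPM. The 7 carcinoma markers differed between organs, with median sums of 4059, 14414 and 8417 CPM for pancreas, liver and lungs. The 5 acinar markers summed to 626 to 2769 CPM over pancreas libraries. The 8 fibroblast markers summed to 9256 to 25361 CPM over pancreas libraries, 161 to 1996 CPM over lung libraries and 261 to 36093 CPM over liver libraries. In the liver, 3 libraries stood apart with the highest fibroblast sums: the paired-end library labelled Smad4 off on day 7 (36093 CPM, with 317 CPM of acinar markers, which were below 1 CPM in the other liver libraries), replicate 2 labelled off on day 14 (4355 CPM) and replicate 3 labelled on on day 14 (3311 CPM). Reads on mt-Co3, a mitochondrial gene, were counted in 10 liver and lung libraries and listed at 0 in the other 25, and values within these sets stand beside the results they touch.

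Some members are neighbors in the genome. On chromosome 5 of GRCm38, Cxcl5 (chr5:90759360-90761624, plus strand) lies 130 kb before Cxcl1 (chr5:90891241-90893115, plus), and Cxcl1 ends 10.8 kb before Cxcl2 (chr5:90903871-90905938, plus). Ccl2 (chr11:82035571-82037453, plus) ends 8.26 kb before Ccl7 (chr11:82045712-82047525, plus). Cxcl10 (chr5:92346638-92348889, minus), Cxcl16 (chr11:70453983-70459984, minus), Cxcl12 (chr6:117168535-117181367, plus), Ccl20 (chr1:83116766-83119167, plus) and Cx3cl1 (chr8:94772009-94782427, plus) stand apart from these. The principal GENCODE M21 transcripts of 8 members encode 93 to 148 residues, whereas Cxcl16 encodes 246 and Cx3cl1 395, since these are anchored in the membrane by a stalk and a transmembrane segment.

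The promoters of 4 members are shown because they carry the κB consensus that NF-κB dimers bind. The RefSeq promoter table (GRCm38.p6) held 6 of the 10 members. The κB consensus, searched on both strands in the 250 bases before the start, was found in 4 of these 6, Cxcl1, Cxcl2, Cxcl10 and Ccl20, against 3.9% of all 32841 promoters. The lines give the bases from 120 to 31 before the RefSeq start, read on the strand of the gene, with κB matches in capitals, from chr5:90891125-90891214 (plus), chr5:90903779-90903868 (plus), chr5:92348920-92349009 (minus) and chr1:83116646-83116735 (plus).
Cxcl1: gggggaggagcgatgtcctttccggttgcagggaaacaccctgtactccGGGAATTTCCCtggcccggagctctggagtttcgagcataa
Cxcl2: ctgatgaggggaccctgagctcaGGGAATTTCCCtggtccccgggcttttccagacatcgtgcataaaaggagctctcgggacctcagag
Cxcl10: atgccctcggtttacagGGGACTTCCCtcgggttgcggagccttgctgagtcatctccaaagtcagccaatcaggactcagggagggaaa
Ccl20: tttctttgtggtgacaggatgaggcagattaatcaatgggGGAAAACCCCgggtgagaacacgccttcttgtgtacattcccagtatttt
Cxcl1 and Cxcl2 carry the same 11 letters, 71 to 61 and 97 to 87 bases before their starts, where matches of both strands overlap, and 14 promoters of the table hold those letters. Cxcl10 has a second κB match, 159 to 150 bases before its start, and was the only member of the 6 with the core of the interferon-stimulated element (AAANNGAAA, in 9.38% of all promoters) or an AP-1 site (TGANTCA, in 6.75%). The SMAD-binding letters CAGAC were found in Cxcl2 alone among the 6, against 42.2% of all promoters. Such matches are descriptions of letters, not measured binding.

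Cxcl1 was the chemokine with the highest level per kilobase of principal transcript in 34 of 35 libraries, at 204 CPM per kb in the median library (range 61.6 to 652). The exception was a liver library labelled Smad4 on on day 14, in which Cxcl5 was first. Cxcl16, Cx3cl1, Cxcl2 and Cxcl5 followed with medians of 36.9, 36.3, 34.9 and 33.8 CPM per kb, which do not differ beyond their ranges. Ccl2 had a median of 16.2, Cxcl10 of 10.5, Ccl20 of 7.04, Cxcl12 of 3.14 and Ccl7 of 2.39 CPM per kb, and neighbors in this order overlapped in range too. The order differed between organs: Cxcl12 was among the first 3 in 9 of 10 pancreas libraries, 1 of 11 liver libraries and 0 of 14 lung libraries, whereas Ccl20 was last in all 10 pancreas libraries and no lower than place 8 in the lungs. Cx3cl1, the ligand of CX3CR1, had the narrowest range as a ratio of highest to lowest, 3.05, from 19.0 to 58.1 CPM per kb, whereas Ccl20 ranged from 0.364 to 120 and Cxcl12 from 0.401 to 78.9 CPM per kb.

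**Figure D1:**
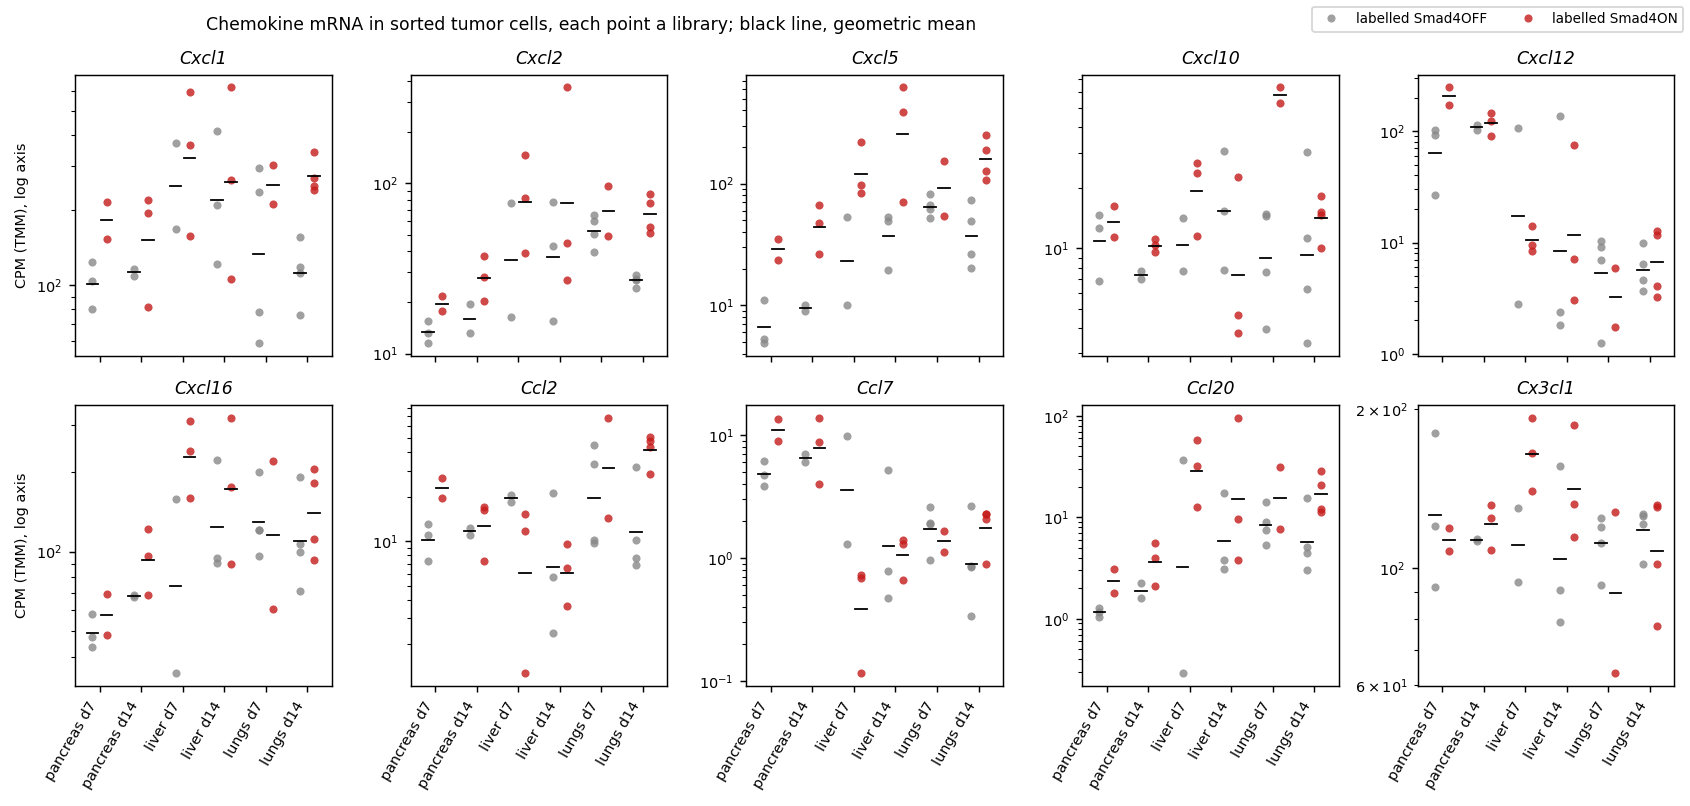
Level of each member in CPM (TMM-scaled, log axis) by organ and day, for libraries labelled Smad4 off (grey) and on (red), with the geometric mean as a black line. Cxcl5 labelled on lies above off without overlap in every organ and day except the lungs on day 7, and Cxcl12 and Ccl7 are highest in the pancreas. Such small groups can separate by chance, and the share of all genes that did so was not counted.

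Cxcl5, which with Cxcl1 and Cxcl2 attracts neutrophils through CXCR2, was the member with the largest log2 fold change between labels when these were averaged over organs and days. In the pancreas, Cxcl5 was 10.999, 5.32 and 4.89 CPM labelled off and 35.3 and 23.5 CPM labelled on on day 7, and 10.1 and 8.96 CPM off and 26.5, 67.1 and 47.4 CPM on on day 14. In the liver it was 52.7 and 10.0 CPM off, the second in the paired-end library, and 219, 83.8 and 96.7 CPM on on day 7, and 19.3, 49.3 and 53.3 CPM off and 620, 70.0 and 390 CPM on on day 14. In the lungs it was 51.7, 82.4, 62.4 and 66.3 CPM off and 154 and 54.0 CPM on on day 7, and 26.6, 72.9, 20.3 and 49.4 CPM off and 253, 190, 127 and 107 CPM on on day 14. The groups overlapped only in the lungs on day 7. Here and below, groups of 2 to 4 libraries can separate by chance. The share of all genes whose groups did not overlap was not counted, so these separations are descriptions and not results about the members. The log2 fold changes were 2.06 (SE 0.40), 1.996 (SE 0.86) and 0.66 (SE 0.38) on day 7 and 2.32 (SE 0.44), 3.12 (SE 0.79) and 1.996 (SE 0.43) on day 14, in the order pancreas, liver, lungs. The summed CPM of 8 macrophage markers was also higher labelled on in some groups, without overlap. It was 256 to 294 against 74.3 to 132 in the liver on day 7. On day 14 it was 303 to 333 against 185 to 290 in the pancreas. In the liver it was then 254 to 540 against 148 to 232, and in the lungs 390 to 760 against 230 to 366. In the pancreas and lungs on day 7 these sums overlapped. The part of macrophage RNA in Cxcl5 was not tested.

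Tested organ by organ and day by day, edgeR's quasi-likelihood test called Cxcl5 in the pancreas on day 14 (adjusted p = 0.0354), and called no other member in any of these 6 comparisons at over 2-fold and an adjusted p under 0.05. The call on Cxcl5 was lost without either library labelled off (adjusted p = 0.163 and 0.19), or without replicate 3 labelled on (0.0869), and over all alternatives its adjusted p ran from 5.15e-10 to 0.313. The background differed greatly: on day 7 the share of all tested genes called was 1.33%, 0.444% and 0% for pancreas, liver and lungs, and on day 14 it was 4.64%, 0% and 0.0271%. At an unadjusted p under 0.05, 7, 1 and 1 of the 10 members passed on day 7, beside 3340 of 14439, 4340 of 16007 and 793 of 15193 genes. On day 14, 4, 1 and 5 members passed, beside 4075 of 14234, 1447 of 14947 and 1485 of 14751 genes. DESeq2 called 3, 1 and 1 members on day 7, beside 517, 2842 and 100 genes in all, and 1, 1 and 4 members on day 14, beside 832, 332 and 197 genes.

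Averaged over the 3 organs and both days in 1 fit, a comparison added after the data were seen, Cxcl5 was 4.12-fold higher in the libraries labelled on (log2 fold change 2.04, SE 0.28, adjusted p = 1.21e-05). Of all genes, 6% were called in this comparison. Its log2 fold change stayed between 1.86 and 2.30 over 42 alternatives, with an adjusted p of at most 0.000431. It was above 0 in 7 of 8 comparisons made within libraries with or without mt-Co3 counts. Ccl20 was so in 7 and Cxcl2 in 8 of the 8, and the other members in 4 to 6. Each side of these comparisons held 1 to 3 of the same libraries, so some rest on single libraries. Ccl20, the ligand of CCR6, was 2.42-fold higher (log2 fold change 1.28, SE 0.45, adjusted p = 0.039), but leaving out a library ended this call in 19 of 35 cases. In these fits its log2 fold change ran from 0.87 without replicate 1 labelled on of the liver on day 14 to 2.26 without replicate 1 labelled off of the liver on day 7, and without the paired-end library its adjusted p was 0.052. Cxcl2 and Cxcl1 passed the adjusted p but not the fold, at 1.95-fold (adjusted p = 0.0139) and 1.61-fold (adjusted p = 0.0436).

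Cxcl1 and Cxcl2, 2 neutrophil attractants with a shared κB stretch, separated by label most cleanly in the lungs on day 14. There Cxcl2 was 24.4, 28.9, 27.2 and 27.4 CPM labelled off and 86.1, 76.9, 51.4 and 55.6 CPM labelled on. Cxcl1 was 76.1, 156, 112 and 119 CPM off and 343, 268, 242 and 249 CPM on. Neither pair of groups overlapped, and the log2 fold changes were 1.31 (SE 0.17, adjusted p = 0.0615) and 1.25 (SE 0.21, adjusted p = 0.138) by edgeR's quasi-likelihood test. With the replicate number as a block, Cxcl2 (log2 fold change 1.28, adjusted p = 0.00878) and Cxcl1 (1.27, adjusted p = 0.043) were both called. In these libraries the number goes with the split by mt-Co3 counts, so a pairing and that split cannot be told apart. Over all alternatives the adjusted p ran from 1.04e-08 to 0.545 for Cxcl2 and from 1.86e-05 to 0.487 for Cxcl1. In the liver on day 14, by contrast, Cxcl2 spanned 15.5 to 77.1 CPM off and 27.0 to 366 CPM on, and Cxcl1 122 to 414 CPM off and 106 to 621 CPM on, so the labels overlapped there. The library with 366 CPM of Cxcl2, replicate 1 labelled on, also had the highest neutrophil marker sum, 255 CPM against 0.785 to 52.8 CPM in the other 34 libraries, and the part of neutrophil RNA in its chemokine levels was not tested.

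Ccl20 was at 1.04 to 1.27 CPM labelled off and 3.13 and 1.81 CPM labelled on in the pancreas on day 7, groups that did not overlap. In the liver it ranged more widely than any other member: 36.8 and 0.289 CPM off and 58.0, 32.3 and 12.7 CPM on on day 7, and 3.12, 17.2 and 3.82 CPM off and 95.6, 3.81 and 9.67 CPM on on day 14. The value of 0.289 CPM is that of the paired-end library and rests on 7 counts. In the lungs on day 14 it was 4.46, 15.4, 3.02 and 5.11 CPM off and 28.9, 21.0, 11.2 and 12.01 CPM on, so only replicate 2 labelled off reached into the other group. All 6 log2 fold changes of Ccl20 between labels were above 0, from 0.79 to 2.14, and none passed (adjusted p from 0.153 to 0.998).

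Cxcl16, the membrane-anchored ligand of CXCR6, also had 6 of 6 log2 fold changes above 0, from 0.06 to 1.20. It was 158 and 34.7 CPM off and 310, 239 and 159 CPM on in the liver on day 7, where the groups just failed to overlap, and 70.7 to 190 CPM off and 93.1 to 206 CPM on in the lungs on day 14, where they did. Cx3cl1, the other membrane-anchored member, showed log2 fold changes of −0.22 to 0.49, 3 of 6 above 0. Its levels lay between 63.1 and 193 CPM in every library, and its fitted fold changes between labels and between organs were at most 1.40.

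Ccl2 and Ccl7, neighbors on chromosome 11 whose proteins attract monocytes through CCR2, lay in opposite directions between labels in the pancreas and in the liver on day 7. In the pancreas on day 7, Ccl2 was 10.999, 13.1 and 7.31 CPM off and 26.7 and 19.6 CPM on, and Ccl7 4.71, 6.19 and 3.86 CPM off and 8.92 and 13.5 CPM on. In the liver on day 7, Ccl2 was 18.4 and 20.6 CPM off and 11.8, 15.3 and 1.27 CPM on, and Ccl7 1.30 and 9.75 CPM off and 0.731, 0.694 and 0.115 CPM on. In the first case the groups labelled on lay above and in the second below those labelled off, without overlap. None of these passed edgeR's test: the log2 fold changes were 1.15 (adjusted p = 0.0791) and 1.20 (0.0775) for pancreas tumors, and −1.12 (0.505) and −3.46 (0.128) for liver metastases. The 9.75 CPM of Ccl7 is again the paired-end library, without which the log2 fold change was −1.41 (adjusted p = 0.397). In the lungs on day 14, Ccl2 was 7.69, 32.0, 6.91 and 10.1 CPM off and 51.1, 43.6, 28.5 and 47.7 CPM on (log2 fold change 1.598, adjusted p = 0.302), and leaving out replicate 2 labelled off gave 2.35 (adjusted p = 0.0335).

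Cxcl10, an interferon-induced ligand of CXCR3 that attracts T cells and natural killer cells, had its largest log2 fold change in the lungs on day 7. There it was 3.95, 14.9, 7.65 and 14.5 CPM labelled off and 63.4 and 52.8 CPM labelled on, without overlap (log2 fold change 2.51, SE 0.50, adjusted p = 0.56; 0.00156 by DESeq2). By day 14 the lung levels were 3.38 to 30.3 CPM off and 10.1 to 18.1 CPM on, and the log2 fold change was 0.19. In the liver on day 14 it was −0.86, from 30.6, 15.4 and 7.80 CPM off and 22.7, 4.63 and 3.78 CPM on. Of its 6 log2 fold changes, 5 were above 0.

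Cxcl12 spread widely within the liver groups. It was 2.81 and 106 CPM labelled off and 14.2, 9.59 and 8.46 CPM labelled on on day 7, and 2.37, 137 and 1.83 CPM off and 7.17, 3.05 and 75.0 CPM on on day 14, with overlap on both days. On day 7 the log2 fold change was −2.40 (adjusted p = 0.293), and 1.83 (adjusted p = 0.0889) without the paired-end library, which had the 106 CPM. In the pancreas on day 7 Cxcl12 was 26.6, 92.8 and 103 CPM off and 247 and 171 CPM on, without overlap (log2 fold change 1.51, adjusted p = 0.197), and the fibroblast sums there were also higher labelled on, 24119 to 25361 CPM against 12620 to 17241 CPM.

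Between labels, 48 of the 60 log2 fold changes of the 10 members were above 0. The medians of the members were 0.97, 0.64 and 0.53 on day 7 and 0.51, 0.37 and 0.97 on day 14 in pancreas, liver and lungs, against medians of all genes between −0.06 and 0.02. Cxcl1, Cxcl2, Cxcl5, Cxcl16 and Ccl20 were above 0 in all 6 comparisons, and Cxcl12, Ccl7 and Cx3cl1 in 3 of 6.

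**Figure D2:**
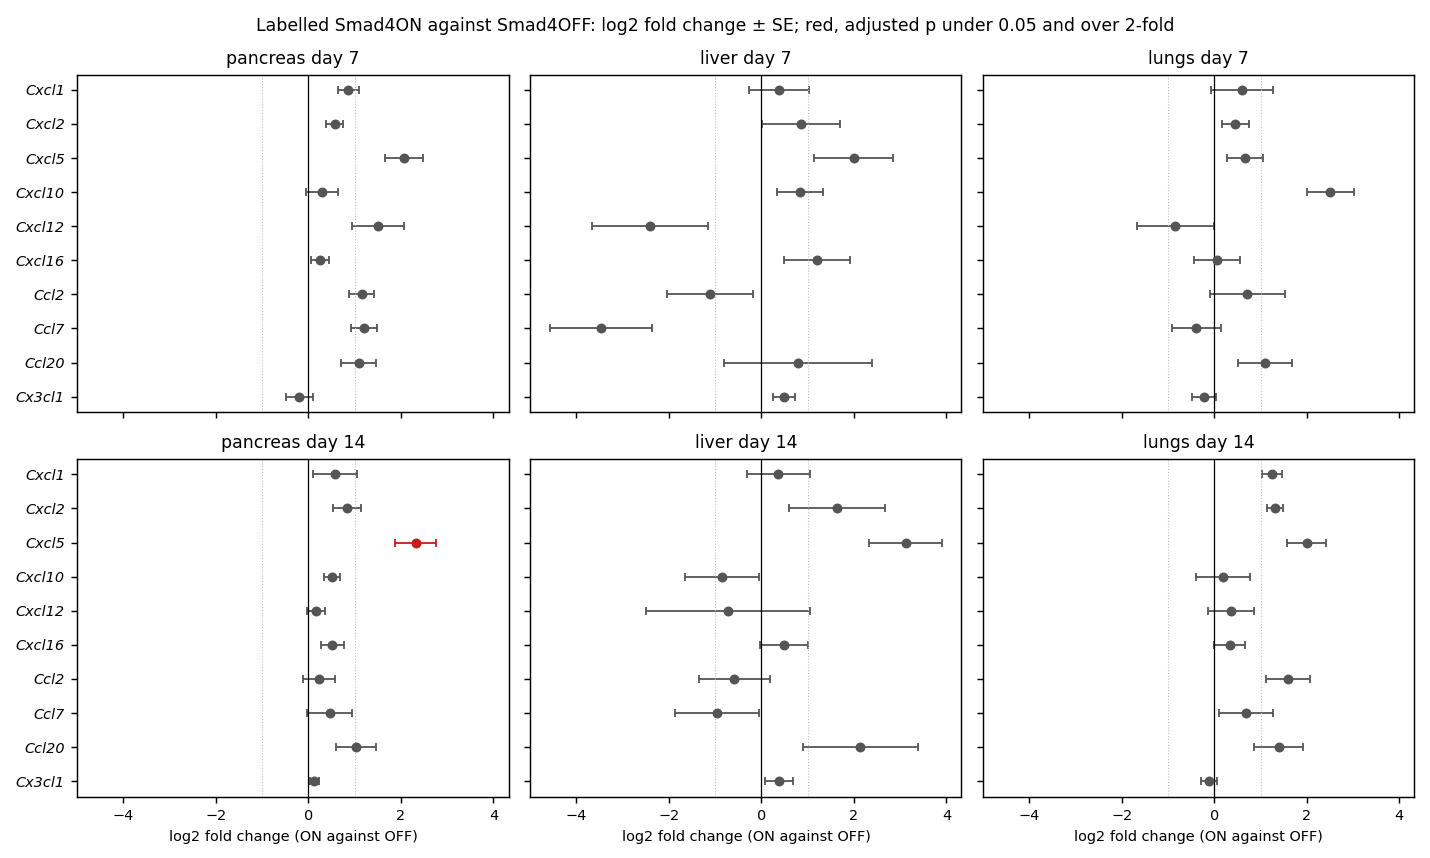
Log2 fold change (points) and SE (bars) of each member, labelled Smad4 on against off, in the 3 organs on day 7 (top) and day 14 (bottom), with red for members past 2-fold and an adjusted p under 0.05. Cxcl5 in the pancreas on day 14 is the red point, and the widest bars are in the liver.

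Whether the response to the labels differed between liver and lungs was tested directly, as the difference of the log2 fold changes. No member was called on day 7 (1.86% of all genes called) or day 14 (0%), and 1 member passed an unadjusted p under 0.05 on each day, beside 3450 of 16369 genes on day 7 and 478 of 15869 on day 14. On day 7 the largest differences were −3.00 for Ccl7 (SE 1.17, adjusted p = 0.177) and −1.81 for Ccl2 (SE 1.32, adjusted p = 0.489), both lower in the liver. Over all alternatives they ran from −3.79 to −0.99 for Ccl7 and from −2.52 to −0.35 for Ccl2. In the liver labelled off, Ccl7 was 9.75 CPM in the paired-end library and 1.30 CPM in the other, so its difference leans on the paired-end library. On day 14 Ccl2 again had the lowest value, −2.17 (SE 0.93, adjusted p = 1). Leaving out replicate 1 labelled off of the liver on day 7 left the paired-end library alone in its group. The differences were then 3.10 for Cxcl5, −3.79 for Ccl7 and 5.79 for Ccl20, and they rest on that 1 library.

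More members passed between organs than between labels, as did more of all genes. The organ comparisons used all 35 libraries in 1 fit, and the 6 label comparisons only those of 1 organ and day. Averaged over labels and days, 7 of 10 members passed in liver against pancreas, where 20.9% of all genes were called, and 6 of 10 in lungs against pancreas, where 21.8% were. These comparisons share the pancreas libraries and are given side by side. Ccl20 was 9.67-fold higher in the liver (log2 fold change 3.27, SE 0.63, adjusted p = 0.000125) and 5.67-fold higher in the lungs (2.50, SE 0.59, adjusted p = 0.00118) than in the pancreas. Its range was 1.04 to 5.59 CPM (median 1.96) for primary tumors, 0.289 to 95.6 CPM (median 12.7) for liver and 3.02 to 31.4 CPM (median 10.1) for lung metastases.

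Cxcl5 was 5.06-fold higher in the liver (log2 fold change 2.34, SE 0.37) and 4.79-fold higher in the lungs (2.26, SE 0.36), at medians of 17.3, 70.0 and 69.6 CPM for pancreas, liver and lungs. Cxcl2 was 3.85-fold and 2.75-fold higher, at medians of 18.6, 44.9 and 51.01 CPM. Cxcl16 was 2.38-fold and 2.04-fold higher, and it fell under 2-fold in lungs against pancreas without any of 11 libraries in turn. Cxcl1 passed in the liver alone (2.20-fold, adjusted p = 0.00539), and fell under 2-fold without each of 3 liver libraries. It was not called with the groups labelled off alone (log2 fold change 1.27, adjusted p = 0.0596) or labelled on alone (1.004, adjusted p = 0.0744), nor was Cxcl16 with those labelled off alone in the liver (0.98, adjusted p = 0.1) or those labelled on alone in the lungs (0.94, adjusted p = 0.0848). In the lungs the log2 fold change of Cxcl1 was 0.49 (adjusted p = 0.192). For each of these genes the ranges of liver and pancreas libraries overlapped. The carcinoma marker sums were also higher in liver and lungs than in pancreas, at medians of 14414, 8417 and 4059 CPM. The part of the mix of cells in these organ differences was not tested.

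Cxcl12 and Ccl7 went the other way. Cxcl12, the ligand of CXCR4, which stromal cells make in many tissues, was 26.6 to 247 CPM (median 108) for primary tumors, 1.83 to 137 CPM (median 8.46) for liver and 1.26 to 12.6 CPM (median 6.17) for lung metastases. Pancreas and lung libraries did not overlap, and Cxcl12 was 19.9-fold lower in the lungs than in the pancreas (log2 fold change −4.31, SE 0.72, adjusted p = 2.46e-05). Ccl7 was 3.86 to 13.8 CPM in the pancreas and 0.335 to 2.67 CPM in the lungs, again without overlap (log2 fold change −2.28, SE 0.41, adjusted p = 5.72e-05). In the liver, Cxcl12 was 4.00-fold lower (adjusted p = 0.0135) and Ccl7 4.59-fold lower than in the pancreas (adjusted p = 0.000135), and with the groups labelled off alone neither passed, at log2 fold changes of −0.82 (adjusted p = 0.567) and −0.71 (adjusted p = 0.425). With a covariate for mt-Co3 counts, Cxcl12 in liver against pancreas was not called either (−1.78, adjusted p = 0.0651).

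Fibroblast markers correlated with both genes within groups, but Ccl7 did not follow them in every library. Among the liver libraries with high fibroblast sums, Ccl7 was 9.75 CPM in the paired-end library. It was 0.667 CPM in replicate 3 labelled on on day 14, below the liver median of 0.781 CPM. The 3 liver libraries with the highest fibroblast sums were also the 3 with the highest Cxcl12, at 106, 137 and 75.0 CPM against 1.83 to 14.2 CPM in the other 8. Without them, Cxcl12 in liver against pancreas had a log2 fold change of −4.82 (adjusted p = 3.25e-08) in place of −1.9999, and in lungs against liver it turned from −2.31 (SE 0.63, adjusted p = 0.0103) to 0.47 (adjusted p = 0.372). This fit was added after the data were seen. Because the libraries left out held the highest Cxcl12 of the liver, lower liver values without them were fixed beforehand. Leaving out the paired-end library alone gave −1.25 (adjusted p = 0.148) in lungs against liver, and over all alternatives this value ran from −2.96 to 0.47 and its adjusted p from 0.000756 to 0.672. Within groups, Cxcl12 correlated with the fibroblast sum at r = 0.70 over the 35 libraries and Ccl7 at r = 0.52, and the next highest was Cx3cl1 at r = 0.35. Fibroblast markers were not alone in this. The sum of endothelial markers had r = 0.52 with Cxcl12 and 0.44 with Ccl7, and the carcinoma sum −0.59 and −0.51. All 8 fibroblast markers were above 0 in every library, and the part of fibroblast RNA in the levels of Cxcl12 and Ccl7 was not tested. In such bulk libraries, fewer cells of a type and less RNA per cell cannot be told apart.

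**Figure D3:**
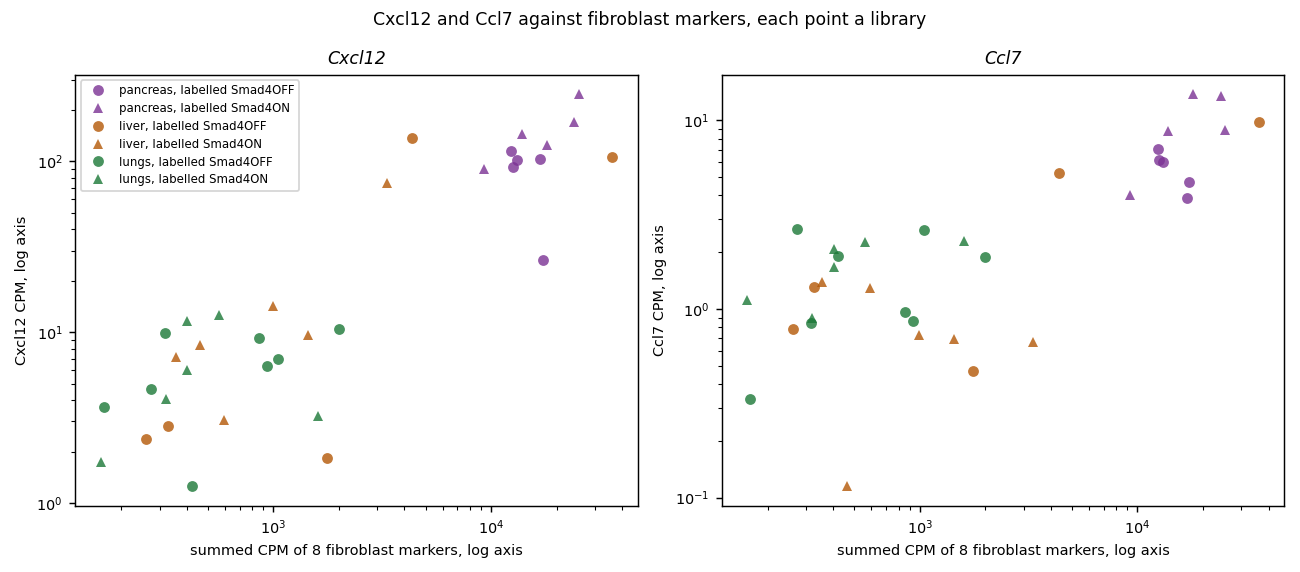
Cxcl12 (left) and Ccl7 (right) in CPM against the summed CPM of 8 fibroblast markers, all axes logarithmic, with a point for each library colored by organ and shaped by label. Pancreas libraries and the 3 liver libraries with the highest sums lie at the upper right for Cxcl12.

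Between the metastatic sites few members differed. In lungs against liver 2 of 10 members were called, where 8.57% of all genes were. Apart from Cxcl12, this was Ccl2, which was 2.67-fold higher in the lungs (log2 fold change 1.42, SE 0.40, adjusted p = 0.0117), at 6.91 to 68.4 CPM (median 30.2) against 1.27 to 21.2 CPM in the liver (median 9.58). Without replicate 1 labelled on of the lungs on day 7 its log2 fold change was 1.04 (adjusted p = 0.082), and over all alternatives the adjusted p ran from 0.000966 to 0.70. The organs overlapped in Ccl2. Against the pancreas, Ccl2 in the lungs lay just under the 2-fold threshold (log2 fold change 1.00, adjusted p = 0.0438). For Cxcl5, Cxcl16 and Ccl7 the log2 fold changes between these organs were −0.08, −0.22 and −0.08, with SEs of 0.32, 0.26 and 0.40.

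**Figure D4:**
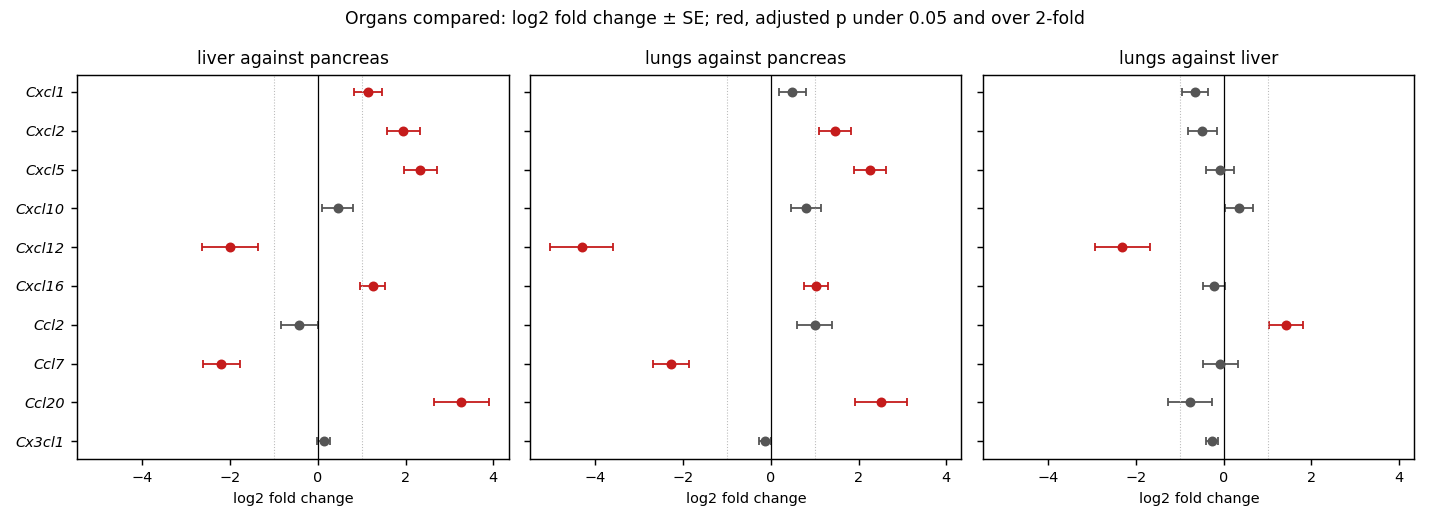
Log2 fold change (points) and SE (bars) of each member between organs, averaged over labels and days, with red for members past 2-fold and an adjusted p under 0.05. Ccl20, Cxcl5, Cxcl2 and Cxcl16 lie to the right of 0 and Cxcl12 and Ccl7 to the left of 0 in both comparisons with the pancreas.

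No member differed detectably with time. Comparing day 14 with day 7 within an organ, over both labels, no member was called and none passed an unadjusted p under 0.05 in pancreas, liver or lungs. The edgeR test also called 0% of all genes for pancreas, 0% for liver and 0% for lungs, with 2002, 1559 and 1122 genes at an unadjusted p under 0.05. By DESeq2, too, no member was called. The largest values of members were 0.90 for Cxcl5 in the liver (SE 0.48) and −0.84 for Cxcl10 in the lungs (SE 0.43).

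Other genes of chemokine signaling were counted in the same comparisons, in which 6% of all genes were called between labels averaged, 20.9% in liver against pancreas and 21.8% in lungs against pancreas. Of 20 other chemokine ligands tested, 7 were higher and 1 lower in the libraries labelled on, averaged over organs and days, with a median log2 fold change of 0.71 against 0.01 for all genes. These included Ppbp (2.37), Ccl28 (2.50), Pf4 (1.52) and Cxcl15 (2.05), of which Ppbp and Pf4 are known from platelets. Liver against pancreas, 4 of the 20 were higher and 4 lower: Ccl28, an epithelial ligand of CCR10, was higher by a log2 fold change of 3.92, and Ccl8, Cxcl14 and Ccl11 were lower by −3.06, −2.54 and −3.34. Lungs against pancreas, 8 were higher and 4 lower, among them Cxcl15 at 4.47, a chemokine known from lung epithelium, whose markers summed to 64.3 to 500 CPM in the lung libraries and at most 1.72 CPM in the others.

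Of the 13 chemokine receptors tested, 1 was higher and 6 were lower in liver against pancreas, and 2 higher and 5 lower in lungs against pancreas. Among all 17547 genes, 2020 were higher and 1652 lower in the first comparison and 2360 higher and 1462 lower in the second. In these comparisons, in the same order, the scavenging receptor Ackr4 had log2 fold changes of −3.63 and −5.09. Cx3cr1 had −1.67 and −1.40 and Ccr2 −1.66 and −1.57, and macrophages are known to carry both. Cxcr2, the receptor of Cxcl1, Cxcl2 and Cxcl5, was at most 6.30 CPM in any library. Between labels, averaged over organs and days, Cxcr2 was higher (1.77) and Ackr3 (−1.26) and Cxcr6 (−1.67) were lower. Among 5 genes that process chemokines, Mmp9 was higher labelled on (2.75) and lower in liver and lungs than in pancreas (−3.14 and −2.62), and Dpp4, a protease that trims chemokines, was higher in the lungs than in the pancreas (1.78).

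Of 10 inflammatory cytokines tested, 5 were higher in liver than in pancreas, where 20.9% of all genes were called, led by Il1a (2.47), Tnf (1.92), Csf3 (2.52) and Csf2 (1.78). In lungs against pancreas, where 21.8% of all genes were called, 4 were higher and 1 lower, with Tnf at 1.37, Lif at 1.17 and Csf3 at 1.81, and Csf1 lower. Of 15 NF-κB factors and feedback targets, 2 were higher in the liver (Icam1, 1.77, and Rel, 1.30) and 1 in the lungs (Icam1, 2.03) than in the pancreas, and Icam1 alone was called between labels (1.14, averaged over organs and days). Of 12 interferon response genes, 1 was called between labels (Rsad2, 1.12), 1 in liver against pancreas (Irf7, 1.33) and 2 in lungs against pancreas (Gbp2, 1.47, and Gbp3, 1.05). The shares of NF-κB and interferon genes called in both comparisons with the pancreas lay below those of all genes. In lungs against pancreas, though, the NF-κB list had a median log2 fold change of 0.56 against 0.06 for all genes. Relb (0.64, adjusted p = 2.01e-06) and Tnip1 (0.73, adjusted p = 9.19e-06) passed the adjusted p but not the fold there. In lungs against liver, 2 of the 12 interferon genes were higher, Gbp2 (1.72) and Gbp3 (1.06), where 8.57% of all genes were called.

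Within groups, members varied together in blocks. After removal of the group means, Ccl20 correlated with Cxcl16 at r = 0.84, with Cxcl5 at 0.81 and with Cxcl2 at 0.79, and Cxcl16 with Cxcl2 at 0.77, over 35 libraries. Ccl2 and Ccl7, the chromosome 11 neighbors, correlated at 0.75, and Cxcl1 correlated with Cxcl16 and Ccl2 at 0.73 and with Cxcl2 at 0.71. Cxcl12 had r between −0.27 and 0.52 with the other 9 members. Libraries of a group share an organ and a day but not a depth, and these values are descriptions with no test. The macrophage marker sum had an r of 0.74 with Cxcl5, 0.66 with Cx3cl1, 0.64 with Cxcl16 and 0.63 with Ccl20 within groups, and the neutrophil sum had 0.77 with Cxcl2 and 0.56 with Ccl20. The macrophage sum was 74.3 to 760 CPM over all libraries, and all 8 of its genes were above 0 in every library. Cd14 had the highest median of the 8 in each organ, 108, 180 and 254 CPM for pancreas, liver and lungs. Adgre1, Csf1r, C1qa and C1qb were instead highest in the pancreas (Csf1r 14.9, 4.83 and 5.15 CPM), whereas Ptprc, Cd68 and Lyz2 were not. These medians do not bear on r values within groups. No r was taken for the 8 genes singly, so the weight of Cd14 in the r values was not tested. Ly6g, which marks neutrophils, was listed at 0 in 12 libraries. The part of these cells in the chemokine levels was not tested.

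**Figure D5:**
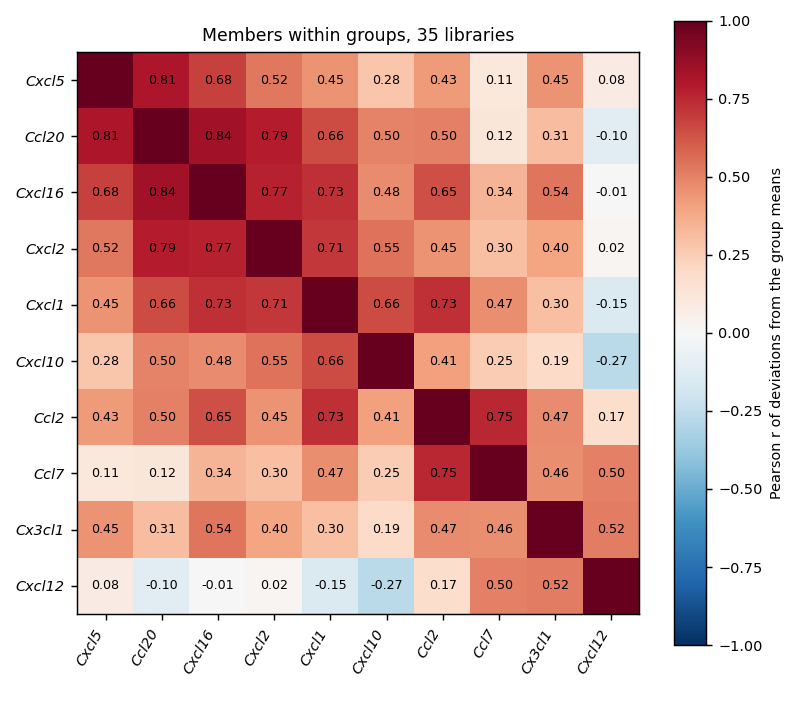
Pearson r between members of their deviations from the group means of log2 CPM, over 35 libraries, from blue (negative) to red (positive). Ccl20, Cxcl5, Cxcl16, Cxcl2 and Cxcl1 form a block with r of 0.45 to 0.84, and Cxcl12 lies outside it.

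Over all 35 libraries, the genes most like each member differed by block. Among 11918 genes, Ccl20 was most like Tnf (Pearson r = 0.94), Csf3 (0.92) and Irak2 (0.91), Cxcl16 most like Il23a (0.93), Tnf (0.92) and Cdcp1 (0.91), and Cxcl2 most like Nfkbid (0.90), Ccl20 (0.89) and Tnf (0.88). Cxcl1 was most like Irf1 (0.85), Nfkbia (0.84) and Nfkbiz (0.83). Cxcl10 was most like the interferon-induced genes Irgm1 (0.78) and Igtp (0.76). Cxcl5 was most like Rasal1 (0.93), Arhgap26 (0.93) and Muc13 (0.92), none of which is a chemokine or a cytokine. Cxcl12 was most like Col15a1 (0.94), Ednra (0.93) and Mgp (0.93), of which Col15a1 and Mgp encode extracellular matrix proteins. Ccl7 was most like Tgfb3 (0.89), Rgl1 (0.89) and Kdelc1 (0.87), Ccl2 like Vcam1 (0.83), Tmem45a (0.75) and Lifr (0.75), and Cx3cl1 like Prkca (0.78), Mecom (0.78) and Epb41l1 (0.73).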

How the data were processed

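RNA from mKate2+ cells sorted by flow cytometry was sequenced from stranded polyA libraries, single-end except for 1 liver library labelled paired-end (day 7, Smad4 off, replicate 2). The submitters' processing notes name FastQC 0.11.5, Trimmomatic 0.36, STAR 2.5.3a, featureCounts 1.6.3 and the builds GRCm38 and mm10. The authors deposited raw read counts per gene, 53465 genes in 35 libraries, without normalization, and used DESeq2 on them.

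Here, log2 fold changes and p-values came from edgeR 4.0.16 (quasi-likelihood F test, TMM scaling, R 4.3.3) with Benjamini-Hochberg adjustment over all genes tested. Genes passed filterByExpr with a minimum count of 10 and a minimum total of 15, and CPM used TMM-scaled library sizes. A gene was called at over 2-fold and an adjusted p under 0.05. Labels were compared within each organ and day, and in a fit of both organs for the liver and lung difference. Organs and days were compared in 1 fit of all 12 groups. DESeq2 1.42.0, its size factors, no filter, a covariate for mt-Co3 counts, a replicate block and leaving out each library were alternatives. Scripts were tested on simulated counts.

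Groups came from the labels. No 2 libraries were identical, and nothing in the labels says that each library came from a separate animal, so p-values measure the spread between libraries. The replicate number of the labels was checked by correlating the deviations of same-numbered libraries from their group means. It was over 0.1 for every pair in the liver on day 14 (0.146, 0.133 and 0.550) and the lungs on day 14 (0.457, 0.466, 0.515 and 0.492). The numbers were therefore treated as possible pairs, and the blocked value stands beside the results there where it changes a call. Libraries of different numbers were not compared. In both organs on day 14 the number goes with the split by mt-Co3 counts, so pairing and that split cannot be told apart.

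Promoter letters came from RefSeq (GRCm38.p6) and gene models from GENCODE M21. A count of 3 corresponded to 0.0684 to 0.239 CPM, and every member was detected in every library. All 10 members, and from the fixed lists up to 4 called genes with the lowest adjusted p, were named. The members and lists were chosen with earlier results of these data known. Some items of the line's description and of the likeness lists are not reported here.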

Additional observations from a re-analysis of the deposited data

Results flagged for a closer look

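In the 30 sets of 4 libraries tested for a library far from the other 3, chance alone would mark about 1 in 20, and 3 were marked, all in the lungs on day 14. Ccl2 was 32.0 CPM in replicate 2 labelled Smad4 off, against 6.91 to 10.1 CPM in the others. Ccl20 was 15.4 CPM in the same library, against 3.02 to 5.11 CPM. Ccl7 was 0.895 CPM in replicate 3 labelled Smad4 on, against 2.09 to 2.29 CPM.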

How the results depend on the processing

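Of the log2 fold changes of single members, leaving out a library kept the direction and the side of the threshold for 2859, ended a call for 41, made one for 27 and reversed 1: Ccl20 in the liver minus lungs response on day 7, which ran from −1.28 to 5.79, the latter without replicate 1 labelled off of the liver. Other alternatives kept 902, ended 17, made 26 and reversed 1: Cxcl12 in lungs against liver, 0.47 without the 3 liver libraries of high fibroblast sums, which also had the highest Cxcl12 of the liver. These counts leave out members that were called in neither fit and whose sign changed. With a library left out there were 63 such changes between days, 25 between labels and 20 in the liver and lung difference. There were 11 between organs and 3 for labels averaged. With the other alternatives there were 17, 4, 6, 13 and 4, in the same order. The causes were not tested.

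On day 7, DESeq2 called 3 members (517 genes) for pancreas, 1 (2842) for liver and 1 (100) for lungs, and on day 14, 1 (332) for liver and 4 (197) for lungs. Without a filter, 2 (549) were called for pancreas on day 7, 0 for pancreas and 2 (23) for lungs on day 14, and 1 for labels averaged. The fit of 12 groups called 2 (3097) for liver on day 7, and 0 (16) for pancreas and 1 (254) for liver on day 14. The mt-Co3 covariate called 2 (127) in the lungs on day 14. With the replicate block, 2 (109) were called in the lungs on day 14, and in the pancreas on day 14, where the libraries share only a number, 0 (553), with Cxcl5 at 2.18 (adjusted p = 0.106). The block changed no other count of called members.

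Of the organs, groups labelled off alone called 3 (1671 genes) in liver against pancreas and 1 in lungs against liver, groups labelled on alone 1 in lungs against liver, and leaving out the paired-end library or the 3 liver libraries 1 each there. Without the paired-end library, 1 was called for labels averaged. Leaving out each library in turn, 0 to 1, 0 to 5 and 0 to 0 members were called in pancreas, liver and lungs on day 7 and 0 to 3, 0 to 0 and 0 to 1 on day 14. The range was 5 to 7 in both comparisons with the pancreas, 1 to 2 in lungs against liver, 1 to 3 for labels averaged, 0 to 3 for the liver and lung difference on day 7, and 0 to 0 on day 14 and between days. The upper ends for liver on day 7 and for the liver and lung difference on day 7 came from the fit in which the paired-end library alone stood for its group. With 2 to 4 libraries a group, Ccl7 and Ccl20 rest on few counts in some libraries.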
